A study of Mus musculus with 6 samples.

Results

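This account follows 5 genes of adenosine signalling and adenosine turnover in single-nucleus RNA sequencing of mouse striatum: the receptor genes Adora1 and Adora2a, the ecto-nucleotidase gene Nt5e, the adenosine kinase gene Adk and the nucleoside transporter gene Slc29a1. They were taken by name, with earlier results of these data known, and are 5 of the 24841 genes in the deposited table. The nuclei came from frozen, dissected striatum of 3 wild type libraries and 3 libraries labelled heterozygous for Celsr3, the gene of a large cadherin-family membrane receptor. The labels call the libraries of a group biological replicates and give no sex, age, strain, allele design or treatment for either group. If the replicates share animals, the p-values below measure a spread that is partly technical. All values are mean depth-corrected UMI values per nucleus, called levels here, and differences are on the scale of log2(level + 0.01).

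Adenosine is formed outside cells when released ATP is broken down step by step, and the product of Nt5e, known as CD73, carries out the last step from AMP. The receptor made from Adora1 couples to inhibitory G proteins and lowers cyclic AMP, whereas the receptor made from Adora2a couples to stimulatory G proteins, in striatal neurons the olfactory type encoded by Gnal, and raises it. In the striatum Adora2a is best known from the indirect-pathway medium spiny neurons (MSNs), where it opposes the dopamine receptor Drd2. Equilibrative transporters such as the product of Slc29a1 let adenosine cross the cell membrane in either direction, and adenosine kinase, the product of Adk, returns it to AMP inside the cell. Adenosine kinase of the adult brain is known mainly from astrocytes.

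In the GENCODE M21 annotation of GRCm38, Adora1 lies at chr1:134199223-134235431 on the minus strand and Adora2a at chr10:75316877-75334784 on the plus strand. Nt5e lies at chr9:88327197-88372092 on the plus strand, 20.5 Mb from Celsr3 on the same chromosome. Slc29a1 lies at chr17:45585200-45599606 on the minus strand. Adk is the longest of the 5, with 396 kb at chr14:21052574-21448569 on the plus strand, and RefSeq gives it a second start 23.6 kb inside the gene that the table does not separate. Adora1 overlaps Mybph and Slc29a1 overlaps Gm17080, both on the opposite strand and both at low levels over all nuclei (0.00283 and 0.00715). How strand entered the counts is not given in the sources used here, and whether reads of such pairs were kept apart was not tested.

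Adk starts 65 bases from Ap3m1, which runs the other way, so the sequence between both genes is the shared upstream stretch of the pair. It is shown because Ap3m1 was among the genes whose class pattern was most like that of Adk, as given further on. The stretch is chr14:21052509-21052573 of GRCm38.p6, from RefSeq, plus strand, 5′ to 3′, with matches to the GC box GGGCGG in capitals.

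Adk upstream: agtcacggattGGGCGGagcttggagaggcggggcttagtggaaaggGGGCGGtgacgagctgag

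The search covered GGGCGG and its reverse complement CCGCCC, and both matches lay on the plus strand without overlap. Of 32851 RefSeq windows of the same length before a start, 19.6% held at least 1 match and 5.21% at least as many as this one. RefSeq windows were at hand for 4 of the 5 genes, all but Adora2a.

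The libraries held 7735 to 8875 nuclei each, 48834 in all, of which 48140 were kept after 694 doublet-like nuclei were left out. Nuclei had a median of 2456 genes in wild-type replicate 1 and of 2843 to 3011 elsewhere. Of 48559 barcode sequences, 274 occurred in more than 1 library. Over all nuclei Celsr3, the targeted gene, stood at 0.0939 ± 0.0173 in wild type and at 0.0651 ± 0.00409 in heterozygotes (SD, n = 3 each). The groups did not overlap, a pattern shared by 19.2% of all genes there, and limma did not call the difference (adjusted p = 0.457). Clusters were called X-like from marker genes, none of which was a member of the group described here, and the 14 classes whose every library gave 20 nuclei or more were compared. MSNs, the principal neurons of the striatum, were present with their defining genes: 8467 nuclei were D1 MSN-like (direct pathway) and 7125 D2 MSN-like (indirect pathway). Of all kept nuclei, 7895 stayed unnamed. These include clusters that passed the marker count of a class but were kept out of it by markers of another class: cluster 7 with 8 oligodendrocyte markers (4.55% ± 0.901 of kept wild-type and 2.97% ± 1.52 of heterozygous nuclei; SD, n = 3 each), cluster 17 with 8 microglia markers (1.80% ± 0.184 and 2.35% ± 0.673) and cluster 23 with 6 GABAergic interneuron markers (1.20% ± 0.0629 and 1.03% ± 0.876). Cluster 6, with 4 eccentric MSN markers, lacked the MSN genes asked for (2.58% ± 1.48 and 5.48% ± 5.50), and cluster 44 (78 nuclei), with 4 glutamatergic neuron markers, was kept out by a cholinergic one (0.115% ± 0.0196 and 0.212% ± 0.222).

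Adora2a was found mainly in D2 MSN-like nuclei. For replicates 1, 2 and 3, in this order here and below, the level there was 1.80, 1.86 and 1.74 in wild type and 1.82, 1.82 and 1.93 in heterozygotes. The mean over the 6 libraries was 1.83 ± 0.0634 (SD), and the ranges of both genotypes overlapped. Every D2 MSN-like value lay above every value of the next class, mural-like cells of the vessel wall, at 0.333 to 0.644 with a mean of 0.475 ± 0.108. Mural-like values in turn lay above all endothelial-like ones, which averaged 0.256 ± 0.0383. The mural-like class gave 40 to 65 nuclei per library. In the other 11 classes the means ran from 0.189 in oligodendrocyte precursor (OPC)-like nuclei to 0.0516 in cholinergic interneuron-like nuclei, with overlapping neighbours in the order throughout. A value above 0 was seen in 84.3% ± 0.838 of D2 MSN-like nuclei and 10.3% ± 2.00 of D1 MSN-like nuclei (SD, n = 6), whose median genes per nucleus were 3268 and 3391. Oligodendrocyte-like nuclei, with a median of 1831.5 genes, gave 8.77% ± 1.27.

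The low levels of Adora2a outside the D2 class were uneven between libraries. Wild-type replicate 2 held the largest share of D2 MSN-like nuclei among the wild-type libraries, 21.2% against 12.3% and 14.5%. It also had the highest Adora2a level of the 3 wild-type libraries in 11 of the 13 other classes. The ratio of Adora2a to Drd2 was 0.457 ± 0.0273 in D2 MSN-like nuclei, 1.32 ± 0.0861 in D1 MSN-like, 1.49 ± 0.247 in astrocyte-like and 1.21 ± 0.144 in oligodendrocyte-like nuclei (SD, n = 6). In mural-like nuclei it spread from 1.58 to 10.0 between libraries. In cholinergic interneuron-like nuclei, which carried Drd2 at 2.66, the ratio was 0.0183 ± 0.0167. The ratio to Penk, another D2 marker, ran the other way, at 0.393 ± 0.0254 in D2 MSN-like nuclei against 0.311 ± 0.0552 in D1 MSN-like, 0.171 ± 0.0183 in astrocyte-like and 0.163 ± 0.0148 in oligodendrocyte-like nuclei. In mural-like nuclei it was 0.381 ± 0.121. Against D2 MSN-like nuclei the mean ratio to Drd2 was higher in 12 of the 13 other classes, all but the cholinergic, and the mean ratio to Penk was lower in 13 of 13. The part that free RNA has in these low levels was not tested.

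**Figure D1:**
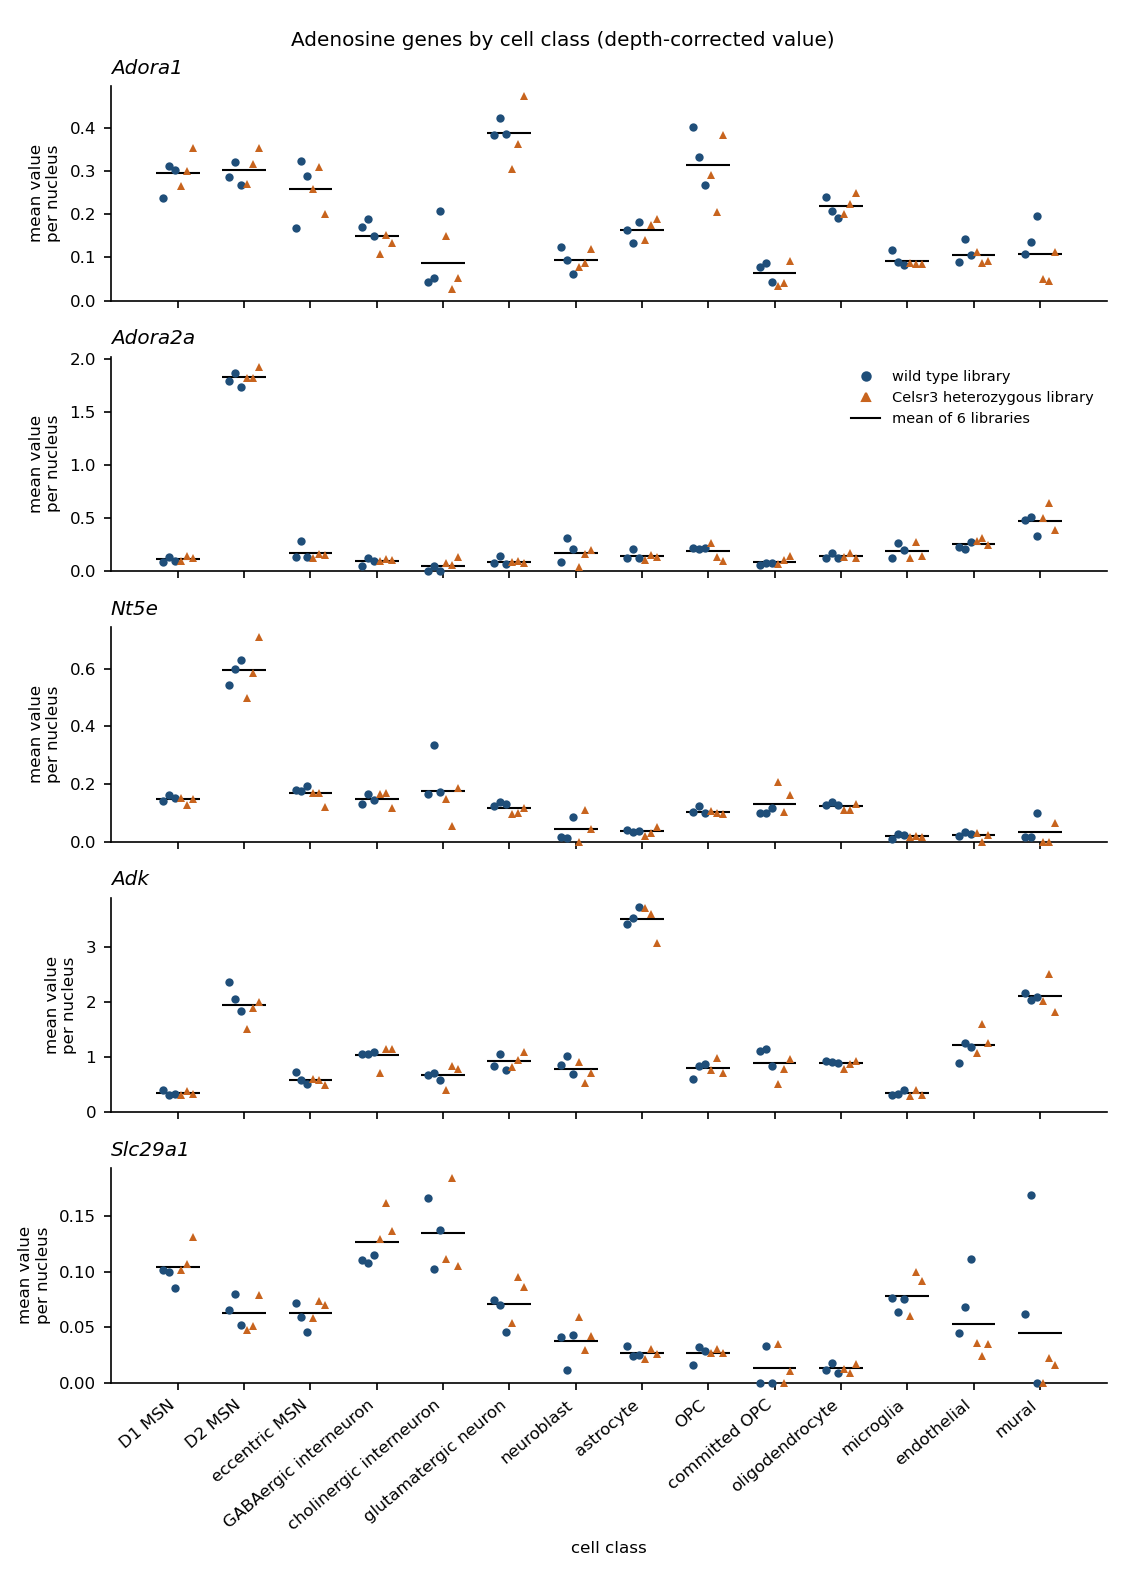
Mean depth-corrected value per nucleus (y axes, linear from 0) of each adenosine gene in the 14 X-like cell classes (x axis), with 1 point for each of the 6 libraries, circles for wild type, triangles for Celsr3 heterozygous, and a line at the mean of 6. Adora2a and Nt5e stand highest in the D2 MSN class, Adk in astrocytes at 3.51, and Adora1 is spread over many classes.

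Adora1 was spread widely and no class stood apart. Its level was highest in glutamatergic neuron-like nuclei, from 0.305 to 0.474 with a median of 0.383 and a mean of 0.388 ± 0.0569 (SD, n = 6). OPC-like nuclei followed at 0.313 ± 0.0738, then D2 MSN-like at 0.302 ± 0.0335, D1 MSN-like at 0.294 ± 0.0399 and eccentric MSN-like at 0.257 ± 0.0622. The ranges of all these neighbours overlapped. The only break in the order came between oligodendrocyte-like nuclei, lowest library 0.191, and astrocyte-like nuclei, highest library 0.189, and it closed when cluster 7 was counted as oligodendrocyte-like (lowest library 0.185). With cluster 6 added, the eccentric MSN-like mean was 0.184 ± 0.0503. Committed oligodendrocyte precursor-like nuclei were last at 0.0625 ± 0.0259, although the OPC-like and oligodendrocyte-like classes on either side of them in the lineage stood at 0.313 and 0.218. Vessel cells and microglia-like nuclei gave 0.0906 to 0.108. The place of OPC-like nuclei depended on the measure. A value above 0 was seen in 20.6% ± 4.43 of them (SD, n = 6). The share was 32.1% ± 3.71 in glutamatergic neuron-like, 26.5% ± 3.01 in D2 MSN-like, 26.3% ± 3.58 in D1 MSN-like and 22.5% ± 4.89 in eccentric MSN-like nuclei. Median genes per nucleus were 2125 in OPC-like nuclei, against 3268 in D2 MSN-like and 3391 in D1 MSN-like nuclei.

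Within broad classes Adora1 differed by cluster, which the class mean hides. Among the glutamatergic neuron-like clusters, cluster 29 averaged 0.641 ± 0.189 (5 libraries with at least 10 nuclei) and cluster 16 averaged 0.547 ± 0.113, whereas clusters 18, 15, 34 and 43 averaged 0.307, 0.288, 0.282 and 0.209. Among astrocyte-like clusters, cluster 8, led by Agt and the GABA transporter gene Slc6a11, carried Adora1 at 0.264, 0.281 and 0.268 in wild type and at 0.278, 0.275 and 0.238 in heterozygotes. Cluster 4, the largest astrocyte-like cluster, carried it at 0.107, 0.0994 and 0.146 and at 0.135, 0.0760 and 0.144. The ranges did not overlap, and cluster 8 was higher in 6 of 6 libraries, with cluster 4 at 0.441 times its mean. Cluster 20, led by Gfap and Myoc among others, averaged 0.140 ± 0.0481. Among D2 MSN-like clusters the means were 0.273 in cluster 2, 0.315 in cluster 5 and 0.369 in cluster 12, with overlapping ranges. Cluster 5 was above cluster 2 in 6 of 6 libraries, and cluster 2 was above cluster 12 in 0 of 6. These clusters were compared after their values were seen, so the values are descriptions without a test.

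Nt5e, whose product forms extracellular adenosine, shared the D2 class with Adora2a. In D2 MSN-like nuclei it stood at 0.544, 0.599 and 0.630 in wild type and at 0.499, 0.585 and 0.709 in heterozygotes, a mean of 0.594 ± 0.0725 (SD, n = 6). The lowest of these exceeded the highest value of every other class, which was 0.333 in 1 library of cholinergic interneuron-like nuclei. A middle group of 8 classes, from cholinergic interneuron-like at 0.176 ± 0.0905 to OPC-like at 0.104 ± 0.0103, included D1 MSN-like nuclei at 0.146 ± 0.0121 and oligodendrocyte-like nuclei at 0.123 ± 0.0111. Below these came neuroblast-like (0.0442), astrocyte-like (0.0351), mural-like (0.0325), endothelial-like (0.0223) and microglia-like nuclei (0.0179). At least 1 library of the neuroblast-like, mural-like and endothelial-like classes was at 0. Among interneurons, cluster 36, led by Nos1, Npy and Sst, averaged 0.296 ± 0.0948. In D2 MSN-like nuclei 42.5% ± 4.25 had a value above 0, against 13.3% ± 1.32 of D1 MSN-like nuclei.

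Adk, the enzyme that removes adenosine inside cells, had its highest level in astrocyte-like nuclei and was unequal between the MSN classes. Astrocyte-like nuclei gave 3.42, 3.53 and 3.73 in the wild-type and 3.71, 3.60 and 3.08 in the heterozygous libraries, a mean of 3.51 ± 0.242 (SD, n = 6). Every one of these lay above every value of the next class, mural-like nuclei at 1.82 to 2.51. D2 MSN-like nuclei came next, at 2.37, 2.06 and 1.84 in the wild-type and 1.51, 1.89 and 2.00 in the heterozygous libraries. Their range overlapped that of mural-like nuclei. Endothelial-like nuclei followed at 1.21 ± 0.235, and a broad middle group ran from GABAergic interneuron-like nuclei at 1.04 ± 0.162 down to eccentric MSN-like nuclei at 0.583 ± 0.0833. D1 MSN-like nuclei, at 0.318 to 0.409, and microglia-like nuclei, at 0.293 to 0.408, were lowest and overlapped each other. Oligodendrocyte-like nuclei stood at 0.886 ± 0.0564, and the unnamed cluster 7, which shared their markers, at 1.35 ± 0.0923. Counting it in that class gave 0.984 ± 0.0830. Adding cluster 17 to the microglia-like class gave 0.414 ± 0.0459, and adding cluster 6 to the eccentric MSN-like class gave 0.749 ± 0.0784.

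Slc29a1, the equilibrative transporter gene, stayed below 0.2 in every library of every class and was highest in 3 neuronal classes. Cholinergic interneuron-like nuclei averaged 0.135 ± 0.0345, GABAergic interneuron-like nuclei 0.127 ± 0.0206 and D1 MSN-like nuclei 0.104 ± 0.0149 (SD, n = 6). The cholinergic class gave only 24 to 39 nuclei per library, and Slc29a1 did not pass the minimum for a genotype test there. Microglia-like nuclei were the highest outside neurons at 0.0778 ± 0.0154. D2 MSN-like nuclei stood at 0.0626 ± 0.0145, and astrocyte-like and OPC-like nuclei both at 0.0266. Oligodendrocyte-like nuclei were last at 0.0127 ± 0.00406. Each class overlapped its neighbour in the order.

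The D1 and D2 classes were compared within libraries, which asks how far the direct and indirect pathway neurons differ in adenosine genes. Adora2a, Adk and Nt5e were higher in D2 MSN-like nuclei in 6 of 6 libraries, and Slc29a1 was higher in D1 MSN-like nuclei in 6 of 6. Adora1 did not pass the test. The range of Adora2a in D1 MSN-like nuclei was 0.0868 to 0.144 against 1.74 to 1.93 in D2 MSN-like nuclei, a 16.1-fold difference in mean level. Adk differed 5.58-fold (0.348 ± 0.0379 against 1.94 ± 0.284) and Nt5e 4.07-fold, and for these 3 genes no D1 value reached any D2 value.

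In limma with the library as a block, the log2 difference D1 minus D2 was -3.91 ± 0.0581 (SE) for Adora2a (adjusted p = 1.49e-22), -2.44 ± 0.0423 for Adk (adjusted p = 2.39e-21) and -1.95 ± 0.0552 for Nt5e (adjusted p = 1.56e-17). Of the 13478 genes tested, 8.26% were called higher in D2 and 26.8% higher in D1. In order of absolute difference Adora2a was number 12, Adk number 50 and Nt5e number 67. These ranks are descriptions, because the members were chosen with earlier results of these data known. Scaling by size factors turned the split of all calls, from 3614 D1-higher and 1113 D2-higher genes to 1740 and 2495, but left these 3 genes at -4.00, -2.53 and -2.03. The exact sign-flip permutation test over the 6 libraries gave p = 0.031 for each of them, the smallest it can give (two-sided).

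Slc29a1 went the other way. It stood at 0.102, 0.0997 and 0.0855 in the wild-type and 0.101, 0.107 and 0.131 in the heterozygous D1 MSN-like nuclei, against 0.0658, 0.0800 and 0.0518 and 0.0478, 0.0512 and 0.0791 in D2 MSN-like nuclei. The classes did not overlap, with a mean 1.67-fold higher in D1. The limma difference was 0.67 ± 0.0821 on the log2 scale (adjusted p = 1.00e-06), and the exact sign-flip p was again 0.031. Adora1 differed by -0.04 ± 0.0462 (limma adjusted p = 0.510; exact sign-flip p = 0.531), with D2 higher in 5 of 6 libraries. Without wild-type replicate 1 this difference was 0.0017, and with size-factor scaling it was -0.13 and passed the threshold (limma adjusted p = 0.0421).

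**Figure D2:**
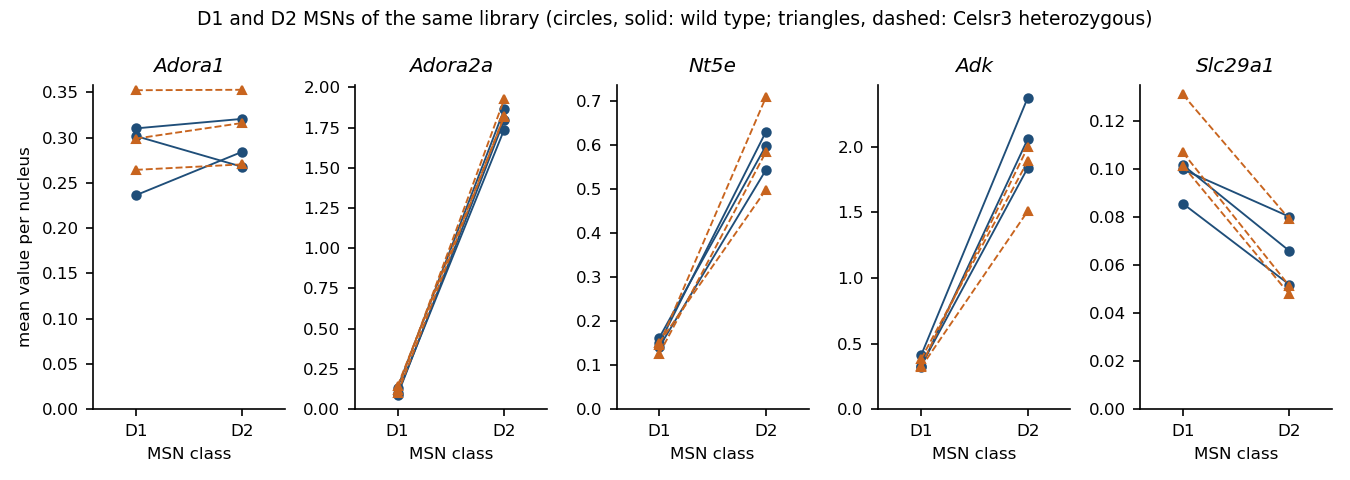
Mean depth-corrected value per nucleus (y axes, linear from 0) in D1 and D2 MSN-like nuclei (x axes) of the same library, joined by a line, circles and solid lines for wild type and triangles and dashed lines for Celsr3 heterozygous. All 6 lines rise from D1 to D2 for Adora2a, Nt5e and Adk, all 6 fall for Slc29a1, and those of Adora1 run nearly level or cross.

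The D2 class was not uniform, and its clusters ranked the genes differently. Adora2a averaged 1.88 ± 0.0641 in cluster 2 (3828 nuclei), 1.83 ± 0.181 in cluster 5 (2039 nuclei) and 1.67 ± 0.182 in cluster 12 (1258 nuclei), with overlapping ranges. In cluster 5 Adk was 3.86, 3.39 and 3.41 in wild type and 2.49, 2.98 and 3.17 in heterozygotes. In cluster 2 it was 1.76, 1.64 and 1.37 and 1.20, 1.32 and 1.59, so that cluster 5 was higher in 6 of 6 libraries, 2.17-fold on average, with no overlap. Cluster 12 averaged 1.25 ± 0.168. Cluster 5 was led by the purinergic receptor gene P2ry1, Drd2 and Calcr and overlapped astrocyte-like cluster 8 in Adk level (2.89 to 3.59). Its nuclei had a median of 3415 genes, against 3224 in cluster 2.

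Nt5e instead set cluster 12 apart. It averaged 0.351 ± 0.0504 there, against 0.674 ± 0.107 in cluster 2 and 0.600 ± 0.0612 in cluster 5, and cluster 12 was lower in 6 of 6 libraries against each, with no overlap. In the D1 class Adk averaged 0.377, 0.346 and 0.312 in clusters 1, 13 and 3, with overlapping ranges, and was lower in cluster 3 than in cluster 1 in 6 of 6 libraries. Slc29a1 was higher in D1 cluster 3 than in cluster 1 in 6 of 6 libraries, 0.122 against 0.0969, with overlapping ranges. These comparisons of clusters are descriptions, chosen after their values were seen.

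**Figure D3:**
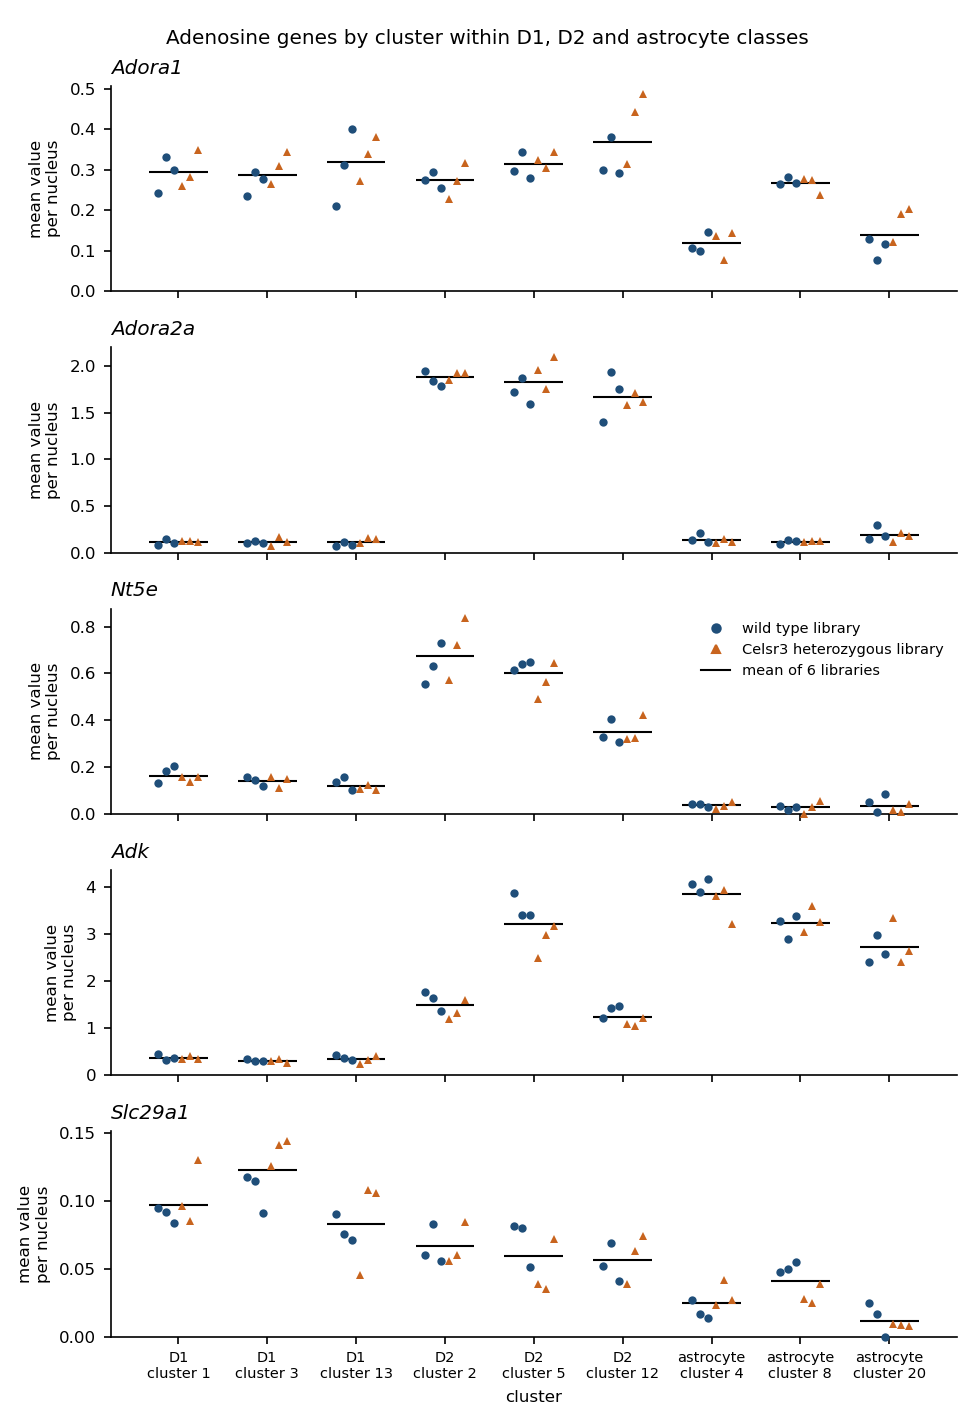
Mean depth-corrected value per nucleus (y axes, linear from 0) of each adenosine gene in the D1 MSN-like, D2 MSN-like and astrocyte-like clusters (x axis), 1 point per library, circles for wild type, triangles for Celsr3 heterozygous, and a line at the mean. D2 cluster 5 stands above the other D2 clusters in Adk, D2 cluster 12 below them in Nt5e, and astrocyte cluster 8 above the other astrocyte clusters in Adora1.

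A wider list of 45 genes of the same pathway, all listed in the table, places the 5 genes among their partners. Of its 32 genes with a class mean of at least 0.1, 5 were highest in D2 MSN-like nuclei, among them Gnal at 6.02 ± 0.356 and the cyclase gene Adcy5 at 5.18 ± 0.370, which act after Adora2a. For both, D1 MSN-like nuclei came next, at 5.35 and 5.00. Entpd1 (CD39), which breaks down extracellular ATP and ADP to the AMP that Nt5e uses, was highest in microglia-like nuclei at 3.06 ± 0.192, where Nt5e was lowest. Microglia-like nuclei were also highest for the receptor gene Adora3 (0.153 ± 0.0296), the transporter gene Slc29a3 (1.05 ± 0.0901) and the purine nucleoside phosphorylase gene Pnp (0.528 ± 0.0728). Adora2b had no clear peak, with 0.0626 ± 0.0350 in OPC-like and 0.0606 in astrocyte-like nuclei. Nor had the adenosine deaminase gene Ada, with 0.0252 ± 0.0122 in glutamatergic neuron-like and 0.0229 in D1 MSN-like nuclei. Among other ectonucleotidase family genes, Entpd2 (0.175 ± 0.0260) and Enpp2 (7.71 ± 0.756) were highest in astrocyte-like and oligodendrocyte-like nuclei respectively.

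Between the MSN classes, 31 genes of the wider list were tested, of which 10 were higher in D1, 9 higher in D2 and 12 did not pass, beside the 26.8% and 8.26% of all genes given above. With size-factor scaling 6 were higher in D1 and 10 in D2, a turn of the split like that of all genes. Among the 9 was Drd2, a marker that named the D2 class, a gene that is no independent evidence here. The median difference D1 minus D2 was 0.09 on the log2 scale against 0.07 over all genes. The 4 genes named next kept their direction and call with that scaling. Entpd1 was higher in D1 (0.369 against 0.185; log2 difference 0.98 ± 0.0484, limma adjusted p = 3.26e-13), opposite to Nt5e, and Entpd3 was too (0.379 against 0.230; 0.70 ± 0.0424, limma adjusted p = 1.15e-11). Gnai1, an inhibitory G protein gene, was higher in D1 by 0.65 ± 0.0437 (limma adjusted p = 6.73e-11). Gnas, the stimulatory counterpart, was higher in D2, with -0.92 ± 0.0477 (limma adjusted p = 7.09e-13).

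The genes whose class means followed each member most closely were found by Pearson correlation of log2(mean + 0.01) over the 14 classes among 13551 genes. The classes come from the same 6 libraries, so the correlations are descriptions. For Adora2a they were Penk (r = 0.904), Gpr6 (0.873) and Hpca (0.809), the first 2 being D2 markers. Adk was followed by Lrig1 (0.776), Gm20416 (0.774) and its divergent neighbour Ap3m1 (0.741), each highest in astrocyte-like and lowest in microglia-like nuclei. Ap3m1 stood at 0.654 ± 0.0730 in astrocyte-like, 0.475 ± 0.0408 in D2 MSN-like and 0.393 ± 0.0282 in D1 MSN-like nuclei, so its ratio of D2 to D1 was 1.21 where that of Adk was 5.58. Nt5e was followed by Gm27200 (0.895), Dot1l (0.888) and Epb41l1 (0.885), none of which had a ratio of D2 to D1 above 1.04. For Adora1 they were Sdr42e1 (0.922), Dock3 (0.829) and Cttnbp2 (0.828), and for Slc29a1 Zscan26 (0.959), Eepd1 (0.934) and Rab11fip5 (0.931). With wild-type libraries alone, 0 of the 3 genes stayed among the closest 3 for Slc29a1, 1 for Nt5e, 1 for Adora1, 2 for Adk (Lrig1 and Ap3m1) and 2 for Adora2a (Penk and Hpca).

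The comparison of heterozygous with wild-type libraries asks how far these genes differ with the Celsr3 genotype. None of the 5 was called by limma over all nuclei or in either MSN class. The same held for all 46 tests of a member in a population, 41 of them in single classes, and 0 reached an unadjusted p under 0.05. Of all genes tested, 9.87% did so over all nuclei, 9.65% in the D1 class, 8.73% in the D2 class and 3.13% to 6.37% in the other classes. Adk passed the minimum level in 13 classes, Adora2a in 9, Adora1 in 8, Nt5e in 7 and Slc29a1 in 4. By adjusted p, 0% of all genes were called over all nuclei, 0.0149% in the D1 class, 0.00784% in the D2 class and 0% in each of the other 12 classes, where other settings called at most 14 genes. The smallest unadjusted limma p among the members was 0.0676 and the smallest adjusted p was 0.587.

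In D2 MSN-like nuclei, where Adora2a is strongest, the genotype difference of Adora2a was 0.05 ± 0.0655 (SE) on the log2 scale (1.80 ± 0.0625 wild type, 1.86 ± 0.0608 heterozygous, SD, n = 3 each; limma adjusted p = 0.892). Over all nuclei Adora2a stood at 0.326, 0.538 and 0.363 in wild type and at 0.362, 0.407 and 0.349 in heterozygotes, with overlapping groups (-0.10 ± 0.179, limma adjusted p = 0.820). D2 MSN-like nuclei made up 16.0% ± 4.61 of wild-type and 13.7% ± 1.61 of heterozygous nuclei (exact permutation p = 0.5, two-sided, where 3 against 3 cannot go below 0.1). An all-nuclei level alone cannot tell fewer nuclei of a class from a lower level per nucleus. Both are therefore given here for the D2 class. Nt5e in D2 MSN-like nuclei differed by 0.0037 ± 0.124 (limma adjusted p = 0.995). Adora1 differed by 0.11 ± 0.137 in D1 and 0.10 ± 0.119 in D2 MSN-like nuclei (limma adjusted p = 0.820 and 0.863).

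The genotype difference of Adk was negative in 9 of its 13 classes, none of them called. Over all nuclei it stood at 1.31, 1.31 and 1.28 in wild type and 1.12, 1.27 and 1.22 in heterozygotes. The groups did not overlap, a pattern shared by 19.2% of all genes there, and the log2 difference was -0.11 ± 0.0722 (limma adjusted p = 0.587). In D2 MSN-like nuclei the difference was -0.22 ± 0.121 with overlapping groups (limma adjusted p = 0.667). By D2 cluster, the wild-type and heterozygous means of Adk were 3.55 and 2.88 in cluster 5, 1.59 and 1.37 in cluster 2 and 1.37 and 1.12 in cluster 12, which were not tested. Cluster 5 made up 26.9% ± 5.41 of wild-type and 30.8% ± 6.06 of heterozygous D2 MSN-like nuclei (exact permutation p = 0.5). In astrocyte-like nuclei the difference of Adk was -0.04 ± 0.0960 (limma adjusted p = 0.955), and the largest, -0.48 ± 0.241, was in committed oligodendrocyte precursor-like nuclei (limma adjusted p = 0.781).

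The groups did not overlap in 3 further tests, all in classes without any called gene. Slc29a1 in GABAergic interneuron-like nuclei was 0.111, 0.107 and 0.115 in wild-type and 0.130, 0.162 and 0.137 in heterozygous libraries (0.33 ± 0.169, limma adjusted p = 0.910), where 11.4% of all genes had groups that did not overlap. Nt5e in glutamatergic neuron-like nuclei was 0.123, 0.136 and 0.131 against 0.0947, 0.0995 and 0.115 (-0.31 ± 0.147, limma adjusted p = 0.940), beside 11.4% of all genes. Nt5e in eccentric MSN-like nuclei was 0.179, 0.176 and 0.192 against 0.170, 0.168 and 0.120 (-0.25 ± 0.217, limma adjusted p = 0.968), beside 10.9% of all genes. The share of glutamatergic neuron-like nuclei was uneven between libraries, from 199 nuclei in wild-type replicate 2 to 1510 in heterozygous replicate 1, and its part in the Nt5e values was not tested. Neither Adora1 nor Adora2a had groups without overlap in any class tested, against 16.1% of all genes in D1 and 14.7% in D2 MSN-like nuclei.

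**Figure D4:**
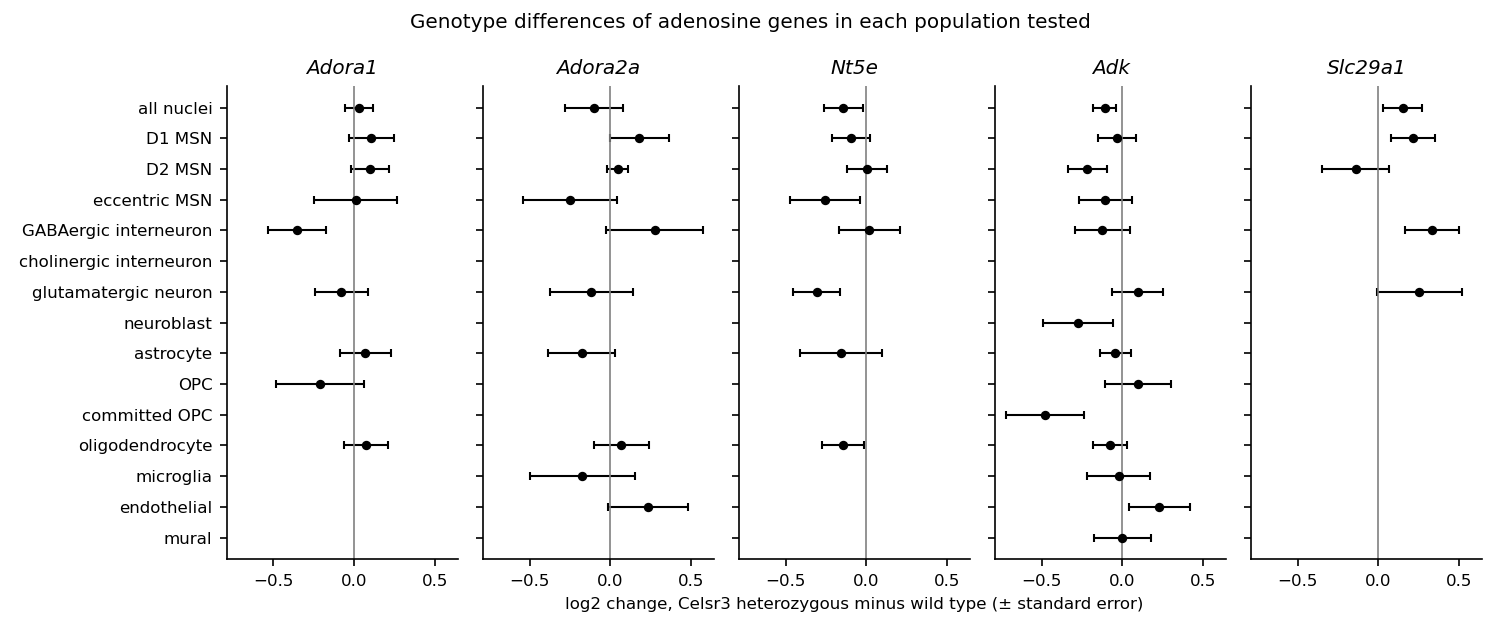
Log2 difference of Celsr3 heterozygous minus wild type (x axes; points with bars of 1 standard error, from limma) for each adenosine gene in all nuclei and in each X-like class where it was tested (y axis; empty rows were below the minimum level). None of the 46 differences was called, and they lie between -0.48 and 0.33.

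Whether the genotype difference was unequal between the MSN classes was tested in 1 limma model, where 0.00787% of 12700 genes were called and no member was. The difference of the genotype effects, D1 minus D2, was 0.18 ± 0.0750 for Adk and 0.36 ± 0.148 for Slc29a1 (limma adjusted p = 0.925 for both). These 2 of the 5 members had an unadjusted limma p under 0.05, beside 5.22% of all genes. Neither gene kept this without wild-type replicate 2, heterozygous replicate 1 or heterozygous replicate 2. The difference was then as low as 0.11 for Adk, without heterozygous replicate 1, and 0.25 for Slc29a1, without wild-type replicate 2. For Slc29a1 the D1 MSN-like mean was 0.0956 in wild type against 0.113 in heterozygotes, and the D2 MSN-like mean 0.0659 and 0.0594. For Adora1, Adora2a and Nt5e the same difference was 0.0083 ± 0.0942, 0.13 ± 0.112 and -0.10 ± 0.109. With 1 library left out, Adora2a had an unadjusted limma p under 0.05 in 2 of 6 fits and Nt5e in 1 of 6.

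In the wider list, limma called 0 of 32 genes tested over all nuclei, 0 of 31 in the D1 class and 0 of 27 in the D2 class, with 2, 5 and 3 at an unadjusted p under 0.05, beside 9.87%, 9.65% and 8.73% of all genes. The median log2 difference was 0.05, 0.10 and 0.04, against 0.07, 0.06 and 0.04 over all genes. Groups did not overlap for 3, 8 and 6 of these genes, beside 19.2%, 16.1% and 14.7% of all genes, and nothing particular to the list is read from these counts. Entpd1, upstream of Nt5e in adenosine formation, had a negative difference without overlap in both MSN classes. Its mean was 0.419 ± 0.0620 in wild type against 0.319 ± 0.0136 in D1 (-0.37 ± 0.115, limma adjusted p = 0.370) and 0.217 ± 0.0466 against 0.152 ± 0.0160 in D2 (-0.47 ± 0.153, limma adjusted p = 0.403). Ampd3, an AMP deaminase gene, had differences of 0.36 ± 0.113 in D1 and 0.27 ± 0.103 in D2 (limma adjusted p = 0.387 and 0.516), and Gnai1 of 0.29 ± 0.108 and 0.25 ± 0.132 (limma adjusted p = 0.441 and 0.645). Over all nuclei the differences without overlap were 0.23 for Dck, 0.22 for Nt5c2 and 0.08 for Panx2 (limma adjusted p = 0.492, 0.457 and 0.698).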

How the data were processed

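Nuclear RNA of 6 striatum libraries was profiled with the 10x Genomics 3′ chemistry, per the labels' protocols. The submitters' processing notes name Cell Ranger, Seurat 4.1 and the builds mm10 and GRCm38, without roles. The values the authors deposited were treated as a score: depth-corrected UMI values rounded to whole numbers, read as such because the total per nucleus (4523 to 10638) varied by a coefficient of variation of 10.7% while genes per nucleus (1284 to 5263) varied by 28.6%. The correction is not given in the sources used here, the original depth is unknown and no counting intervals were computed. All 6 groups of columns mapped to a library by name.

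Nuclei were clustered (2000 variable genes without the members, 30 principal components, 15 neighbours, Leiden resolution 1; scikit-learn 1.9.0, leidenalg 0.10.2, Python 3.11.15), which gave 53 clusters. Nuclei with a score above 0.25 against simulated doublets, and 6 clusters with over 40% of them, were left out (1.42%). Clusters were named from 130 markers in 18 lists: at least 3 markers over 2-fold above other nuclei at a mean over 0.1, and 40% of a list or 1 of the top 10 genes, while a cluster stayed unnamed where another list had more markers among the top 10 genes, or had at least as many there and 50% of its markers passing, and MSN names also needed Bcl11b and Rarb above their median over clusters. These limits were set after the clusters were seen. Class membership was kept by 97.2% of MSN-like nuclei called singly.

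Means per library and class were tested as log2(mean + 0.01) in R 4.3.3 with limma 3.58.1 and a trended empirical Bayes step, where the mean reached 0.02 and the summed value averaged 30 per library, with Benjamini-Hochberg adjustment over all genes of a population and a threshold of 0.05. The log scale understates changes of low genes. Sign-flip and permutation tests used every arrangement. Fits were tested on simulated data. Named genes are the 5 members, the wider list (called genes or, with none, up to 3 with the largest differences without overlap), the 3 genes most like each member and Celsr3. The members and lists were chosen with earlier results of these data known. Alternatives changed the pseudocount, filter, scaling, library weights, replicate block, doublets, depth matching, class weights, class calling, resolution and libraries.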

Additional observations from a re-analysis of the deposited data

How the results depend on the processing

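The higher Adora2a, Nt5e and Adk of D2 MSN-like and the higher Slc29a1 of D1 MSN-like nuclei kept their direction and call under every alternative run, while Adora1 differed by -0.13 with size-factor scaling, past the threshold, and ranged from -0.083 to 0.0017 with 1 library left out. None of 691 alternative genotype values of a member in a population passed (lowest limma adjusted p 0.181), nor did any of 60 for the difference between MSN classes, where the lowest was 0.134 for Adk without heterozygous replicate 3 (0.29). With 1 library left out that difference ran from 0.11 to 0.29 for Adk and from 0.25 to 0.45 for Slc29a1, each with an unadjusted p under 0.05 in 3 of 6 such fits. The number of genes called by genotype was 2 in the D1 and 1 in the D2 class. It was 414 and 169 with array weights and 10 and 12 with nuclei matched on genes per nucleus, and in D2 it was 2 without the low-value filter. With 1 library left out it ranged from 1 to 189 in D1 and from 0 to 118 in D2, both highest without wild-type replicate 1, the library with the fewest genes per nucleus. In the other 12 classes, with 0 genes called, 22 of 179 counts under alternatives were above 0, in 10 classes, the highest being 14 in microglia-like and 9 in committed oligodendrocyte precursor-like nuclei, both without heterozygous replicate 3. The causes of these shifts were not tested. With the replicate number as a block the count was 3 in D1 and 5 in D2, with no member called. Deviations of same-numbered libraries correlated at 0.27, 0.01 and 0.18 in D1, 0.26, 0.06 and 0.18 in D2 and -0.03, 0.14 and -0.07 over all nuclei. Differently numbered libraries gave -0.28 to 0.21 in D1, -0.26 to 0.18 in D2 and -0.14 to 0.18 over all nuclei. These values do not settle whether the numbers pair the samples. The labels do not say so, and the main genotype fits did not pair them.

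Genotype differences near 0 changed sign with settings, none of them called, and the cause was not tested. Size-factor scaling gave -0.030 for Adora1 over all nuclei, -0.021 for Nt5e in D2, -0.043 for Adk in OPC-like and -0.028 in mural-like nuclei, and -0.012 for the Adora1 difference between MSN classes. Array weights gave -0.0091 for Adora1 and 0.024 for Adora2a over all nuclei, 0.10 for Adk in D1, -0.031 for Nt5e in D2, and -0.030 for Adora1 and 0.049 for Adk in eccentric MSN-like nuclei. Equal weights of classes gave -0.095 for Adora1, 0.040 for Adora2a and -0.022 for Slc29a1 over all nuclei. Matched nuclei gave 0.052 for Adora2a over all nuclei, -0.027 for Nt5e in D2, 0.17 for Adk in microglia-like and -0.58 in mural-like nuclei. Resolution 2 gave -0.0078 for Nt5e in GABAergic interneuron-like nuclei, 0.089 for Adk in microglia-like and -0.0096 in mural-like nuclei. Nt5e in D2 was -0.0057 with classes called per nucleus, and Adora1 in eccentric MSN-like nuclei -0.032 with doublet-like nuclei kept.

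With 1 library left out, the following ranges spanned 0. Adora1 ran from -0.043 to 0.084 over all nuclei, -0.013 to 0.20 in D1, -0.42 to 0.015 in OPC-like, -0.043 to 0.19 in astrocyte-like, -0.27 to 0.19 in eccentric MSN-like, -0.25 to 0.064 in glutamatergic neuron-like and -0.0019 to 0.16 in oligodendrocyte-like nuclei. Adora2a ran from -0.24 to 0.11 over all nuclei (the latter without wild-type replicate 2), -0.068 to 0.54 in GABAergic interneuron-like, -0.30 to 0.059 in astrocyte-like, -0.42 to 0.090 in eccentric MSN-like, -0.28 to 0.17 in glutamatergic neuron-like, -0.51 to 0.062 in microglia-like and -0.053 to 0.21 in oligodendrocyte-like nuclei. Nt5e ran from -0.13 to 0.12 in D2, -0.073 to 0.18 in GABAergic interneuron-like and -0.41 to 0.073 in astrocyte-like nuclei. Adk ran from -0.11 to 0.073 in D1, -0.24 to 0.10 in GABAergic interneuron-like, -0.072 to 0.19 in OPC-like, -0.10 to 0.038 in astrocyte-like, -0.22 to 0.034 in eccentric MSN-like, -0.0093 to 0.23 in glutamatergic neuron-like, -0.16 to 0.090 in microglia-like and -0.13 to 0.10 in mural-like nuclei. The difference between MSN classes ran from -0.10 to 0.11 for Adora1, -0.0048 to 0.27 for Adora2a and -0.27 to 0.0035 for Nt5e. Original depth is unknown, and 3 libraries a group set the precision.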

Other observations

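Some nuclei outside the compared classes carried the members at levels not described above. Slc29a1 was highest of all clusters in the unnamed cluster 22 (695 nuclei, led by Abhd12b, Trpm6 and the transcription factor genes Lhx9, Lef1 and Shox2 among others), at 0.271, 0.273 and 0.308 in wild type and at 0.392 and 0.520 in the 2 heterozygous libraries with at least 10 of its nuclei. Every one of these exceeded the mean of 0.135 in cholinergic interneuron-like nuclei, the highest named class. Adora1 averaged 0.313 ± 0.0627 in the same cluster. Adk averaged 2.73 ± 0.496 in fibroblast-like cluster 37, which was not compared because 1 library, wild-type replicate 1, gave 15 nuclei, under the limit of 20. Adora2a averaged 0.339 ± 0.0413 in the unnamed cluster 11 (1332 nuclei), between mural-like and endothelial-like nuclei. That cluster had a median of 1721 genes per nucleus.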
